A study of Mus musculus with 30 samples.

Results

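The animals described here received the polymer carrier of pacDNA without L9, the oligonucleotide directed against the CUG repeat RNA of myotonic dystrophy. They were chosen by label alone and comprised 2 mice given Brush, the bottlebrush polymer of polyethylene glycol side chains with no oligonucleotide, and 2 given pacDNA-Scr, the same polymer carrying a scrambled, fully LNA-modified sequence. These 4 carrier animals of 30 mice in all were compared with 6 untreated HSA-LR mice (NT 1 to NT 6). The question was whether the carrier itself altered muscle gene expression.

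All 10 animals were HSA-LR line 20b on the FVB/N background, labelled genotype DM1. They carry a human skeletal actin transgene with a long CTG repeat that is driven in skeletal muscle, so the line models the muscle RNA toxicity of myotonic dystrophy type 1 and not its other organs. The mice were 8 weeks old at tail vein injection, and quadriceps was taken 2 weeks after the last injection. Brush was given at 40 nanomoles and pacDNA-Scr at 5.3 mg/kg on an oligonucleotide basis, doses that the methods call equimolar. NT animals were untreated and no vehicle injection is described for them, so the injection and the polymer cannot be told apart. By Xist and Y-linked genes, each carrier group held 1 female and 1 male, and NT held 3 females and 3 males. The other animals of the same deposited set were 5 wild-type FVB/N mice (WT), 2 given free L9 at 5.3 mg/kg, and 7 given pacDNA-L9, of which 2 received the low dose of 5.3 mg/kg, 2 the middle dose of 21.2 mg/kg and 3 the high dose of 42.4 mg/kg. They entered the fit for its estimate of spread.

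Injected polymer particles are cleared largely by mononuclear phagocytes, which take up material through scavenger and Fc receptors and digest it in lysosomes. Muscle holds resident macrophages between its fibres, marked by Csf1r, the receptor for the macrophage growth factor, and by the complement C1q chains. Macrophages that have ingested material are known for lysosomal and lipid-handling genes such as Cd68, Ctss and Trem2. Foreign nucleic acids can in addition start an interferon response, seen as higher antiviral genes and MHC class I genes.

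The 4 carrier libraries held 14712245 to 26956558 counts and the 6 NT libraries 17576503 to 23707138. Mitochondrial genes took 6.39% to 7.71% and 6.17% to 8.97% of them. The quadriceps label held: Myh4, the fast myosin heavy chain, and Ckm, muscle creatine kinase, were among its abundant transcripts, Ckm at 7156 to 9832 CPM (counts scaled to the library total) in carrier animals and 8655 or more in NT. In overall profile, the median distance of a carrier library to the NT libraries was 0.380 to 0.445, where each NT library lay 0.408 to 0.477 from the other NT libraries. Brush B, pacDNA-Scr B and NT 6 carry names in the count table made only of their group and a running number, unlike the other 7, and Brush B and pacDNA-Scr B also showed fewer detected genes at equal depth than the other carrier library of their group. Whether that naming marks a batch is not given in the sources used here, so values within each kind of library are given after the gene lists.

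No gene passed an adjusted p of 0.05 between the 4 carrier animals and NT by edgeR (quasi-likelihood F test on the counts, p adjusted by Benjamini-Hochberg over 15832 genes). At an unadjusted p under 0.05 there were 284 genes, 1.79% of those tested, of which 172 were higher and 112 lower in carrier animals. That count was 562 (301 higher and 261 lower) without free L9 B, which is in neither group but enters the estimate of spread, and 502 without NT 2. If no gene differed, a share of about 0.05 would be expected by chance. The 1.79% lies below it, so the count itself is no sign of change, and the fit may be conservative. The same holds for the corresponding shares of the separate comparisons below. DESeq2, run as an alternative, called 2 genes, Mpeg1 and Lyz2, both higher in carrier animals. Of the 10 genes with the smallest p, 5 were the macrophage-expressed genes Mpeg1, Lyz2, Ms4a7, Cd68 and Stab1. Taken gene by gene and without adjustment, the 95% interval of the difference lay inside a 2-fold change in either direction for 69% of genes. Of the 9330 genes averaging at least 5 CPM it did so for 94.5%. Adjustment over all tested genes asks for more than this. Mpeg1 at 2.96-fold and Lyz2 at 2.50-fold did not pass by edgeR, with an adjusted p of 0.249 each. A count of 0 therefore leaves shifts undetected, also of more than 2-fold and not only in genes of low count.

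**Figure D1:**
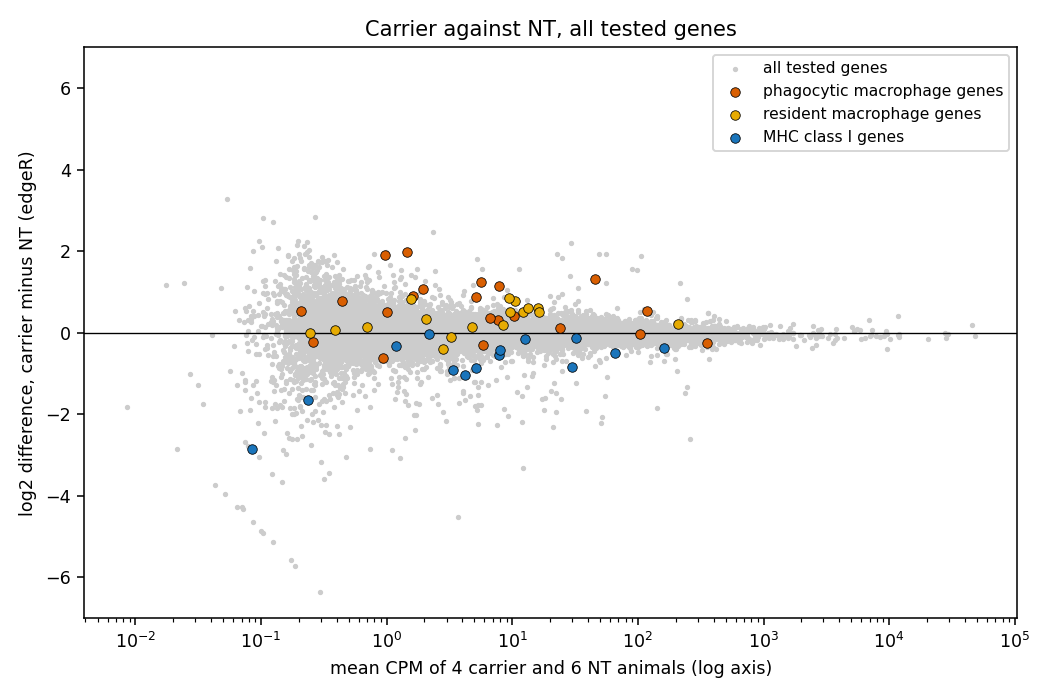
Each grey point is a tested gene, placed by its mean CPM over the 4 carrier and 6 NT animals (horizontal, log axis) and its log2 difference between carrier and NT animals (vertical), with the phagocytic macrophage, resident macrophage and MHC class I lists in colour. Most macrophage genes lie above 0 (16 of 21 phagocytic genes) and all 14 MHC class I genes below it.

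Mpeg1, which encodes the pore-forming protein perforin-2 of macrophages (chromosome 19, 12438114 to 12442649, GRCm39, plus strand), gave the smallest p. Its level was 13.1 CPM in Brush A and 9.56 in Brush B, 5.80 in pacDNA-Scr A and 9.42 in pacDNA-Scr B. In NT it ran from 1.43 to 3.87 with a median of 3.49. All 4 carrier animals lay above all 6 NT animals, a separation in the higher direction that 0.417% of genes showed. The pooled difference was 1.57 ± 0.29 on the log2 scale (SE), or 2.96-fold with a 95% interval of 1.94 to 4.53, and its edgeR adjusted p was 0.249. DESeq2 gave 1.57 ± 0.31 with an adjusted p of 0.0097. Brush alone was 1.82 ± 0.35 above NT by edgeR (adjusted p = 0.141) and pacDNA-Scr alone 1.26 ± 0.35 (adjusted p = 1.00).

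Lyz2, the lysozyme of macrophages and neutrophils (chromosome 10, 117111557 to 117118346, minus strand), stood at 83.4 and 88.1 CPM in Brush A and B, and at 40.4 and 71.4 in pacDNA-Scr A and B. NT ran from 20.2 to 43.8 with a median of 26.4. The ranges overlapped through pacDNA-Scr A alone, which lay below the highest NT animal. The pooled difference was 1.32 ± 0.25 in log2, 2.50-fold with an interval of 1.73 to 3.59, with an adjusted p of 0.249 by edgeR and 0.0097 by DESeq2. Lyz1, its near-identical neighbour, differed by 1.06 ± 0.37, and reads of the 2 genes may be split between them. Part of Lyz2 (16.1% of its exon length) is also covered by an antisense gene, and the strand setting of the counting was not given, so the partner's reads cannot be told apart from its own.

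**Figure D2:**
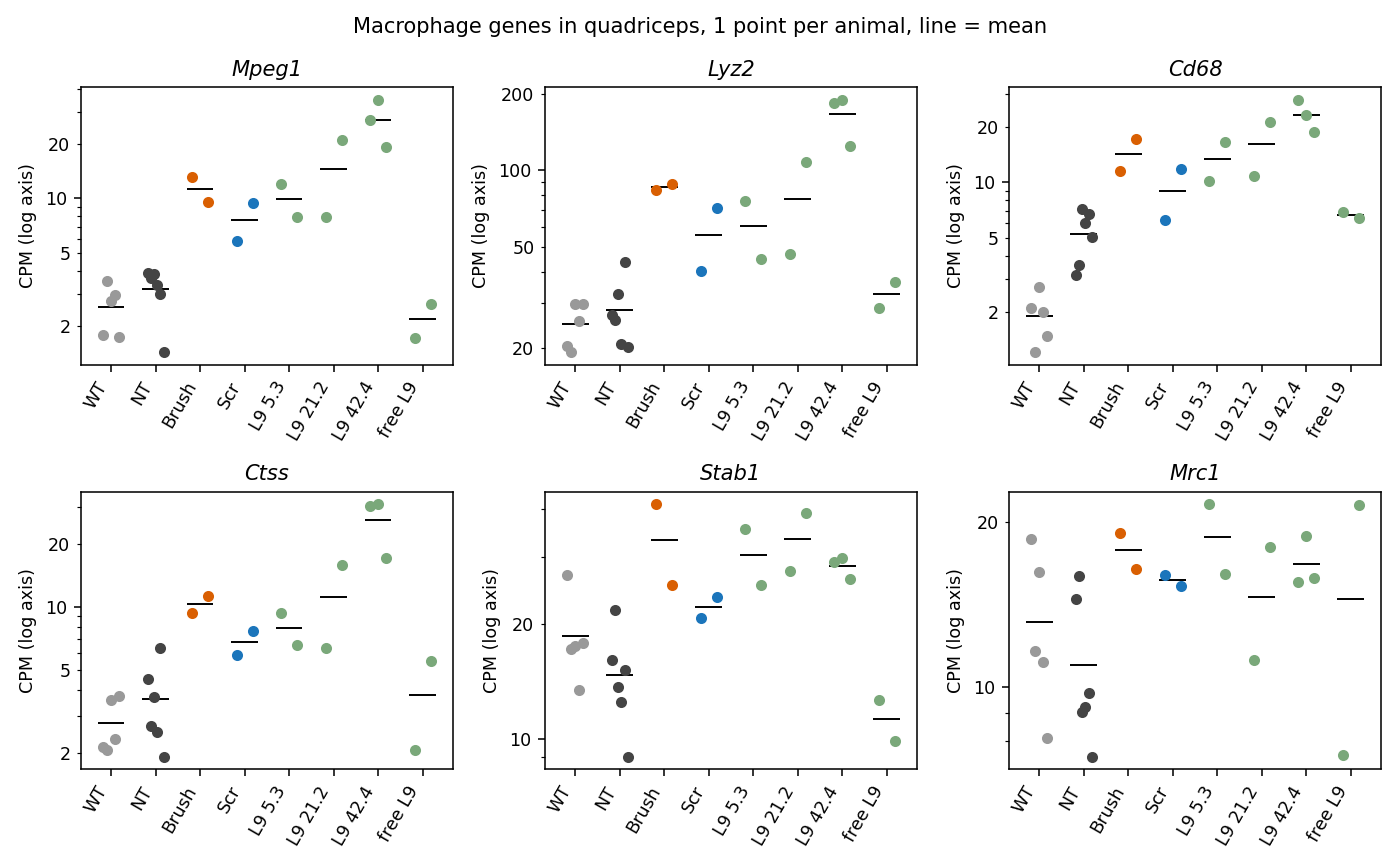
CPM (log axis) of 6 macrophage genes, 1 point per animal with a line at the group mean, in WT, NT, Brush, pacDNA-Scr (Scr), the 3 pacDNA-L9 doses in mg/kg and free L9. For Mpeg1 the 4 carrier animals lie above the NT range of 1.43 to 3.87 CPM, and for Lyz2 pacDNA-Scr A at 40.4 CPM lies inside the NT range.

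Of the other 8 genes among the 10 smallest p, all were higher in carrier animals, with adjusted p between 0.494 and 0.690 by edgeR. Ms4a7, a membrane protein of macrophages, was at 2.52 and 1.37 CPM in Brush, 1.07 and 2.01 in pacDNA-Scr, and 0.291 to 1.00 in NT (median 0.338). The groups did not overlap, and the difference was 1.90 ± 0.41 in log2. Cd68, the lysosomal glycoprotein used as a macrophage stain, was at 11.5 and 17.1 CPM in Brush, 6.27 and 11.8 in pacDNA-Scr, and 3.15 to 7.15 in NT, a difference of 1.14 ± 0.27. Stab1, a scavenger receptor of macrophages and sinusoidal endothelium, was at 41.1 and 25.3 in Brush, 20.7 and 23.5 in pacDNA-Scr and 9.00 to 21.8 in NT, a difference of 0.91 ± 0.22. In Cd68 and Stab1 it was again pacDNA-Scr A that lay within the NT range. Cd83, an activation marker of dendritic cells and other leukocytes, ran from 1.72 to 3.19 CPM in carrier animals against 0.443 to 1.44 in NT. Hpse, heparanase, ran from 1.48 to 2.07 against 0.148 to 0.930. Neither overlapped, with differences of 1.41 ± 0.31 and 1.65 ± 0.37. Hal, histidine ammonia-lyase, and Wfdc17, a secreted protein of activated macrophages, differed by 1.82 ± 0.41 and 1.98 ± 0.45. Cd83, Hpse, Hal and Wfdc17 were outside the naming rule and were chosen after their values were seen.

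Cd4, the remaining gene, is a T helper cell coreceptor in mice that some myeloid cells also carry. It was at 1.16 CPM in Brush A and 0.101 in Brush B, and at 0.473 and 0.537 in pacDNA-Scr. NT ran from 0 to 0.166, so that Brush B lay inside the NT range. The other T cell markers did not move with it: Trac and Cd8a had no count in any carrier animal, and Cd3e had a count only in pacDNA-Scr A, at 0.0592 CPM. Of 18 T and NK cell genes listed, Cd4 was the only one with enough counts to test.

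Among genes averaging at least 2 CPM whose carrier and NT animals did not overlap, the 10 higher genes of smallest p were again partly leukocyte genes. Plek, the pleckstrin of blood cells, stood at 3.25 to 4.08 CPM in carrier animals against 0.988 to 2.27 in NT, a difference of 1.18 ± 0.35. Itgb2, the common chain of the leukocyte beta-2 integrins, stood at 2.01 to 3.74 against 0.885 to 1.74 (1.06 ± 0.38). Pld4, a lysosomal exonuclease of myeloid cells, stood at 3.31 to 6.05 against at most 2.95 in NT (0.87 ± 0.29). The others were no leukocyte markers and differed by less. Adgrd1, an adhesion receptor, Mmp14, a membrane-bound matrix protease, and Rab3il1, an exchange factor for Rab proteins, differed by 0.55 ± 0.22, 0.49 ± 0.22 and 0.49 ± 0.20. Map1a, a microtubule-binding protein, Zbtb21, a zinc finger protein, and Senp1, a SUMO protease, differed by 0.36 ± 0.14, 0.35 ± 0.16 and 0.30 ± 0.12. Apart from Mpeg1, every one of these had an edgeR adjusted p of 1.00.

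Across the phagocytic macrophage list, genes of macrophages that have taken up lipid or debris, 8 of 21 tested genes were higher at an unadjusted p under 0.05 and none lower, where 1.09% of all genes were higher. The list's median difference was 0.53 in log2 beside -0.00 for all genes, and 16 of the 21 estimates were above 0. This list was assembled with earlier results of these libraries known, so its direction is no independent evidence. Trem2, a lipid-sensing receptor, was at 2.11 and 4.15 CPM in Brush, 1.95 and 2.33 in pacDNA-Scr and 0.213 to 1.98 in NT, a difference of 1.97 ± 0.50. Ctss, the cysteine protease cathepsin S, was at 9.32 and 11.3 in Brush, 5.92 and 7.63 in pacDNA-Scr and 1.92 to 6.36 in NT (1.24 ± 0.33). Laptm5 and Tyrobp, a lysosomal membrane protein and a signalling adaptor of myeloid receptors, differed by 0.87 ± 0.30 and 0.90 ± 0.40. Not every member moved: Gpnmb and Lgals3, also typical of such cells, differed by 0.37 and 0.31 with unadjusted p above 0.05, and Spp1, osteopontin, by -0.62. Leaving out each of the 10 compared libraries in turn, or free L9 B, left 7 to 9 of these genes higher, and without pacDNA-Scr B 1 gene was lower. In bulk muscle, a larger number of macrophages and more RNA of these genes per macrophage cannot be told apart.

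Of 17 resident macrophage genes tested, 6 were higher and none lower, where 1.09% of all genes were higher. The median difference was 0.35. Csf1r was at 24.4 and 24.2 CPM in Brush, 15.0 and 16.7 in pacDNA-Scr and 11.6 to 15.2 in NT. Only the Brush animals and pacDNA-Scr B lay above the NT range, and the pooled difference was 0.61 ± 0.19. Csf1r overlaps an antisense gene over 19.9% of its exons. Of the C1q chains, C1qb and C1qc differed by 0.84 ± 0.31 and 0.79 ± 0.29 and C1qa by 0.51 ± 0.30. C1qb was at 11.5 and 21.6 CPM in Brush, 5.80 and 12.6 in pacDNA-Scr and 4.23 to 11.8 in NT, so the groups overlapped. Mrc1, the mannose receptor, ran from 15.3 to 19.1 CPM in carrier animals against 7.48 to 16.0 (0.60 ± 0.26), and Adgre1, the F4/80 antigen, from 1.36 to 2.93 against 0.555 to 1.91 (0.84 ± 0.38). Lyve1 and Timd4, markers of long-lived resident macrophages, were at 4.32 to 5.97 and 0.544 to 1.11 CPM, near NT at 2.99 to 6.23 and 0.394 to 0.988. Cbr2 and Cd163, a carbonyl reductase and the haemoglobin scavenger receptor, differed by 0.51 ± 0.23 and 0.52 ± 0.29. The count of 6 fell to 2 without Brush B and to 3 without NT 3, NT 4 or NT 6, and was 7 without either pacDNA-Scr library.

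Uptake and degradation genes were described by 3 lists, read against the 1.09% of all genes that were higher. Of 28 scavenger and endocytic receptors, 4 were higher and none lower, with a median of 0.11. Besides Stab1 and Mrc1 they were Msr1, the macrophage scavenger receptor, at 0.414 to 1.00 CPM against 0.172 to 0.523 in NT (1.11 ± 0.42), and Fcgr2b, an inhibitory Fc receptor, at 1.61 to 3.81 against 0.738 to 2.95 (1.01 ± 0.40). Of 23 complement genes 3 were higher, C1qb and C1qc and Itgb2. Of 47 lysosome genes 3 were higher and none lower, with a median of 0.03 that stood near that of all genes. Lgmn, the lysosomal protease legumain, was at 32.8 to 49.4 CPM in carrier animals and 31.3 to 41.2 in NT (0.33 ± 0.15), and Slc11a1, a metal transporter of phagosomes, differed by 0.60 ± 0.28.

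**Figure D3:**
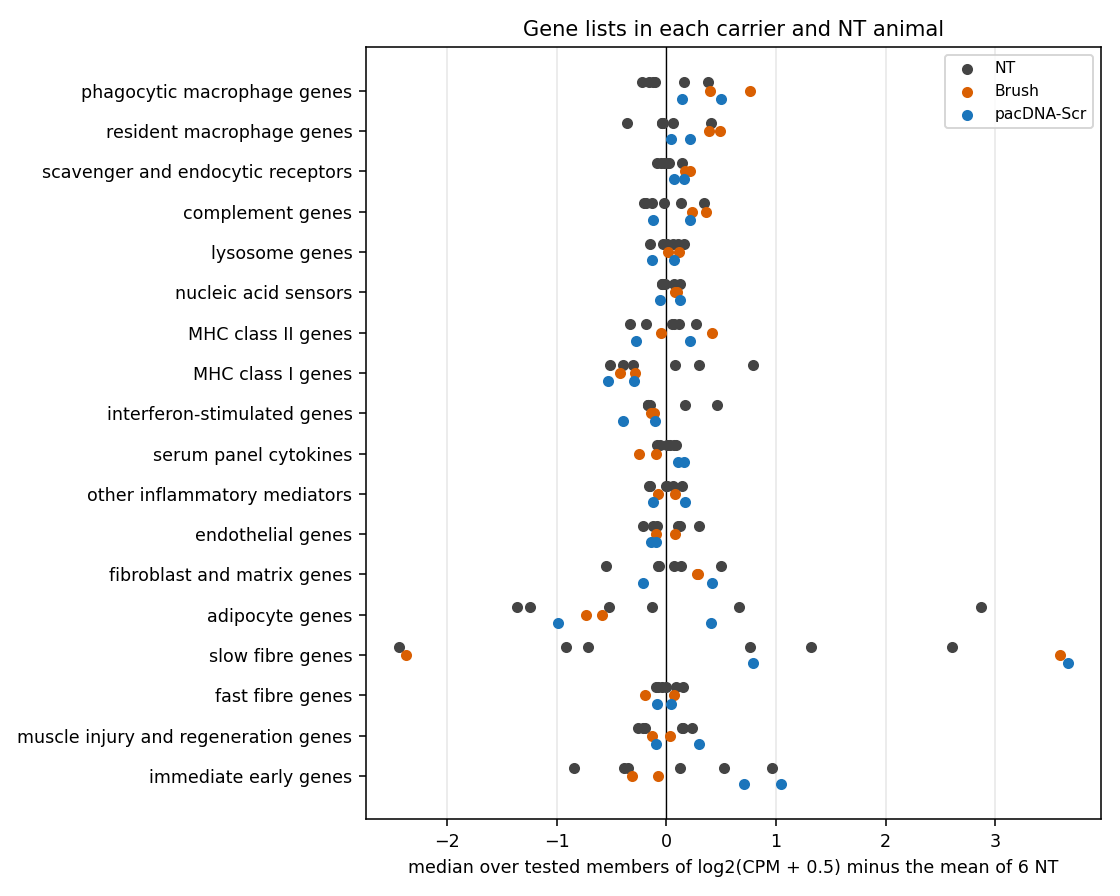
For each gene list, 1 point per animal shows the median over tested members of the log2 CPM (with an offset of 0.5) minus the mean of the 6 NT animals. For the phagocytic macrophage list Brush lies at 0.40 and 0.76 and pacDNA-Scr at 0.15 and 0.50, and the adipocyte and slow fibre lists spread most among the NT animals.

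Brush and pacDNA-Scr were then compared with NT separately. These comparisons share the NT animals. For Brush, edgeR called 0 genes (233 at an unadjusted p under 0.05, 1.47%) and DESeq2 5, namely Lyz2, Slc37a2, Mpeg1, Wfdc17 and Hal, all higher in Brush. For pacDNA-Scr both called 0, with 211 at an unadjusted p under 0.05 by edgeR (1.33%). The phagocytic list held 8 higher genes in Brush and 5 in pacDNA-Scr, with medians of 0.53 and 0.49, and the resident list 8 and 0, with medians of 0.48 and 0.22. The background for higher genes was 0.941% and 0.771%. Slc37a2, a sugar phosphate transporter of the endoplasmic reticulum that macrophages express, was at 3.54 and 2.73 CPM in Brush, 1.07 and 1.22 in pacDNA-Scr and 0.640 to 1.13 in NT. Both Brush animals lay above every other animal of the 10, as 2.74% of genes did against NT, and the difference from NT was 1.76 ± 0.33 (adjusted p = 0.141 by edgeR) in Brush and 0.31 ± 0.36 in pacDNA-Scr.

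The direct comparison of Brush with pacDNA-Scr, polymer without against polymer with a scrambled oligonucleotide, also called 0 genes by edgeR (161 at an unadjusted p under 0.05, 1.02%) and 0 by DESeq2. Slc37a2 was 1.44 higher in Brush, with a 95% interval of 0.54 to 2.35, and Csf1r 0.62 ± 0.28 higher. Mpeg1 and Lyz2 differed by 0.56 ± 0.45 and 0.62 ± 0.39, so neither a difference between the carriers nor its absence was shown. With 2 animals a side the interval lay inside a 2-fold change for 50.7% of genes. Hdac9, a histone deacetylase of muscle, was 1.53 ± 0.43 lower in Brush, at 3.67 and 9.96 CPM in Brush, 18.4 and 21.4 in pacDNA-Scr and 9.95 to 17.7 in NT. Every adjusted p in this comparison was 1.00.

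**Figure D4:**
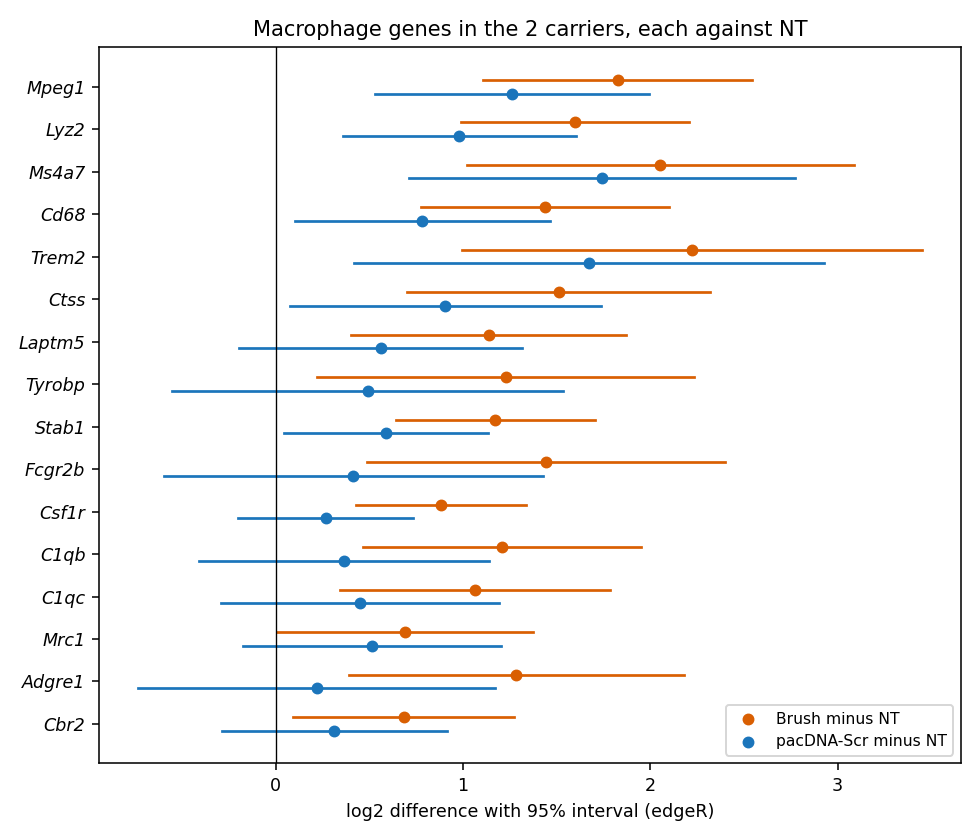
Log2 difference from NT of 16 macrophage genes in Brush (2 animals) and in pacDNA-Scr (2 animals), each with its 95% interval from the edgeR fit. Brush has the higher estimate for each of the genes drawn, Mpeg1 at 1.82 beside 1.26, and the intervals of the 2 carriers overlap.

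In pacDNA-Scr the higher genes of smallest p, Nr4a2 and Irs2, rested on pacDNA-Scr B. Nr4a2, an inducible nuclear receptor, was at 16.3 CPM in pacDNA-Scr B and at 1.24 in pacDNA-Scr A, against 0.303 and 0.408 in Brush and 0.512 to 1.16 in NT. Irs2, the insulin receptor substrate that responds to fasting, was at 103 CPM in pacDNA-Scr B, 25.1 in pacDNA-Scr A, and 12.2 to 25.8 in NT. Nr4a3 was likewise 49.2 CPM in pacDNA-Scr B against 4.56 in pacDNA-Scr A. Of 19 immediate early genes, 2 were higher in the pooled comparison, where 1.09% of all genes were, and none without pacDNA-Scr B. Rsad2, an antiviral protein, was at 0.355 and 0.0716 CPM in pacDNA-Scr, 0.758 or more in Brush, and 0.816 to 3.29 in NT, a difference of -3.03 ± 0.80 in pacDNA-Scr. Slc43a3, a purine transporter, differed there by -0.98 ± 0.35. In Brush the lower genes of smallest p were Zfp61, a zinc finger protein, and Brdt, a bromodomain protein, at -1.16 ± 0.33 and -1.09 ± 0.34. All of these had edgeR adjusted p between 0.678 and 1.00.

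The same macrophage genes can be set beside the animals that received L9, with NT as their common control. Lyz2 ran from 19.3 to 29.9 CPM in the 5 WT animals. It averaged 28.4 ± 8.8 CPM in NT (SD, n = 6), 85.7 ± 3.4 in Brush (n = 2) and 55.9 ± 22 in pacDNA-Scr (n = 2). It averaged 32.7 ± 5.4 with free L9 (n = 2), and with pacDNA-L9 60.4 ± 22 at the low dose (n = 2), 77.4 ± 43 at the middle dose (n = 2) and 166 ± 35 at the high dose (n = 3). At the low and middle doses single animals ran from 44.7 to 108 CPM, a range that held 3 of the 4 carrier animals and not pacDNA-Scr A at 40.4. The free L9 animals were at 28.8 and 36.5 CPM, within the NT range, and in the library of the second of them (free L9 B) mitochondrial genes took 22.3% of the counts. Mpeg1 averaged 11.3 ± 2.5 CPM in Brush and 7.61 ± 2.6 in pacDNA-Scr beside 3.19 ± 0.92 in NT, 2.17 ± 0.65 with free L9 and 9.96 ± 2.8, 14.4 ± 9.2 and a range of 19.2 to 34.9 over the rising doses of pacDNA-L9. Ctss averaged 10.3 ± 1.4 in Brush and 6.77 ± 1.2 in pacDNA-Scr, 3.78 ± 2.4 with free L9 and 7.95 ± 2.0 to 26.1 ± 7.7 across the pacDNA-L9 doses. No test across these groups was made here. All high dose and free L9 libraries were named by group and running number alone, and no low or middle dose library was. The paper gives the middle and high doses in repeated injections. The high dose therefore cannot be told apart from the kind of name, nor dose from the number of injections.

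Of the genes lower in carrier animals, Retnla, a secreted protein of alternatively activated macrophages and adipose tissue, came first by p among those with no overlap. It was at 7.75 and 9.00 CPM in Brush, 7.87 and 10.1 in pacDNA-Scr and 12.3 to 27.9 in NT, with a median of 16.0. Its difference was -1.05 ± 0.30, or 0.483-fold with an interval of 0.315 to 0.739, and its edgeR adjusted p was 1.00. Such separation in the lower direction was seen in 0.291% of genes. Zfp61 was at 0.708 to 1.89 CPM in carrier animals against 1.98 to 3.20 (-0.84 ± 0.25). Uba7, the activating enzyme of the interferon-induced modifier ISG15, was at 2.29 to 2.99 against 3.15 to 5.51 (-0.58 ± 0.22). The others ranged from -0.27 to -0.51: Apip, an enzyme of methionine salvage, Dnajb6, a chaperone, Mpc1, the mitochondrial pyruvate carrier, Trit1, a tRNA-modifying enzyme, and Usp49, Fam117b and Zbtb14. Mpc1, Fam117b, Usp49 and Zbtb14 overlap antisense genes over 17.2% to 51.8% of their exons, so their reads cannot be told apart from those of the partner.

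MHC class I genes, which display peptides on all nucleated cells and respond to interferon, lay lower in carrier animals. All 14 estimates were below 0, with a median of -0.52, and 5 of 14 were lower at an unadjusted p under 0.05, where 0.707% of all genes were. They were H2-Q4, H2-Q6, Tap1 and the immunoproteasome subunits Psmb8 and Psmb9, which differed by -0.87 ± 0.38 and -0.92 ± 0.42. The NT animals were far apart in these genes. H2-K1, a heavy chain, was at 17.4, 22.2, 15.0 and 26.3 CPM in Brush A, Brush B, pacDNA-Scr A and pacDNA-Scr B, while NT ran from 14.1 to 97.8 with a median of 26.3, and the highest value was NT 4. Tap1, a peptide transporter, ran from 1.83 to 4.01 CPM in carrier animals and from 2.79 to 12.0 in NT, NT 4 again highest. B2m, the light chain, was at 37.0 to 68.5 against 39.1 to 145. Without NT 4 none of the 14 passed and the median was -0.22. Leaving out other single libraries of the 10 gave 0 (without Brush B or pacDNA-Scr A) to 7 (without NT 1 or NT 2), with 3 without NT 3, 2 without NT 5 and 6 without NT 6. Among libraries named by running number alone, where NT 6 is the only NT animal, the median was 0.03. Among those named otherwise 4 of 13 were lower with a median of -0.55, where 523 of all 15162 genes tested were lower. H2-K1, H2-D1 and H2-Q4 are near-identical paralogs and overlap antisense genes, so their separate values are uncertain.

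**Figure D5:**
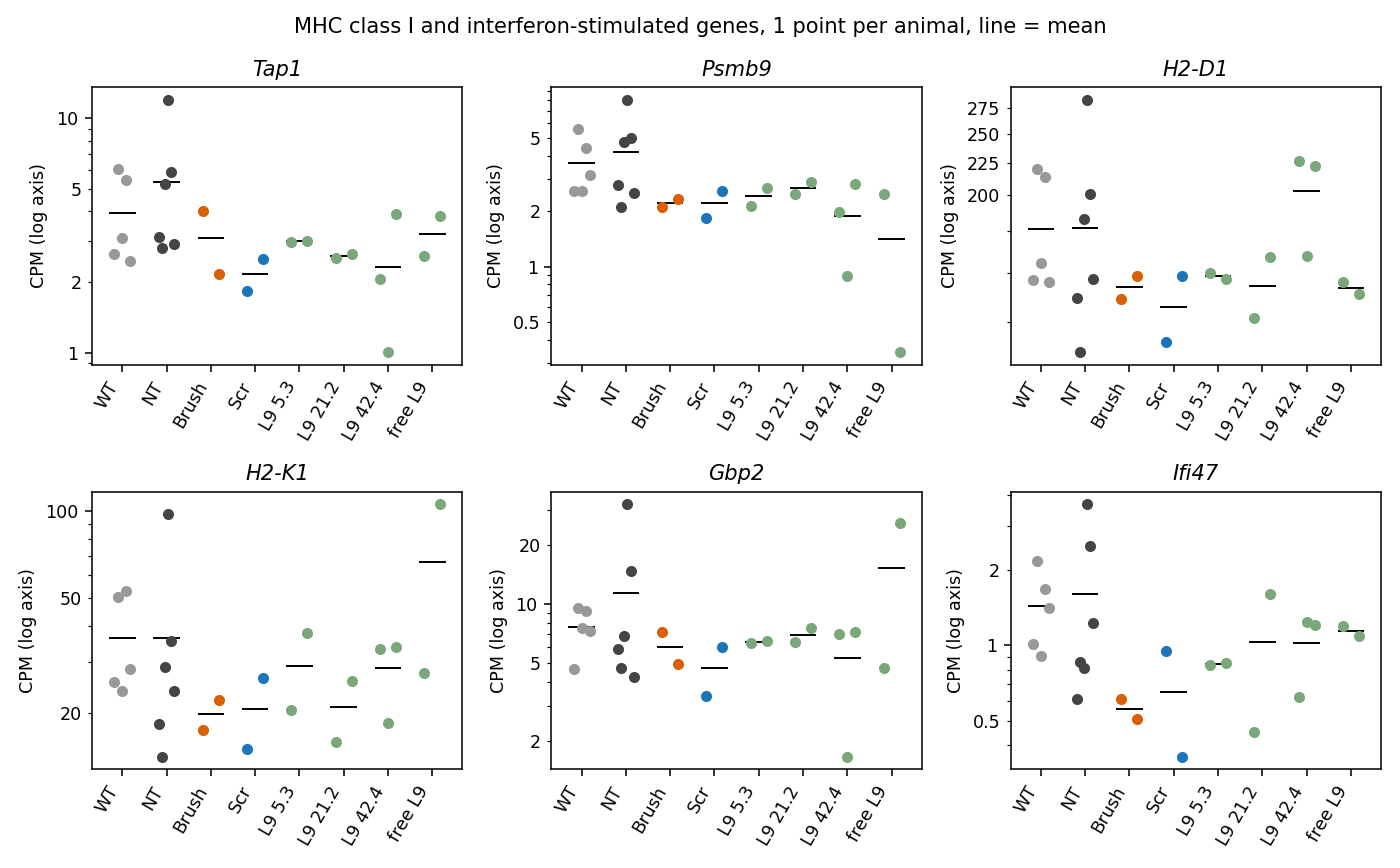
CPM (log axis) of 6 MHC class I pathway and interferon-stimulated genes, 1 point per animal with a line at the group mean, in WT, NT, Brush, pacDNA-Scr (Scr), the 3 pacDNA-L9 doses in mg/kg and free L9. The carrier animals lie in the lower part of the NT range or below it, and NT 4 is the highest NT animal for Tap1 (12.0) and H2-K1 (97.8).

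Of 42 interferon-stimulated genes tested, none was higher and 2 were lower at an unadjusted p under 0.05, where 0.707% of all genes were lower. The median was -0.32 with 5 estimates above 0. The lower genes were Ifi47, an interferon-induced GTPase, at -1.44 ± 0.50 and Rsad2 at -1.34 ± 0.59. Without NT 4 the median was -0.12 and 1 was lower, and leaving out other single libraries gave 1 to 5. Gbp2, a guanylate-binding protein, was at 3.37 to 7.14 CPM in carrier animals and 4.23 to 32.2 in NT. Of 21 nucleic acid sensors 1 was higher, Tlr7, the endosomal receptor for single-stranded RNA that myeloid cells carry, at 0.769 to 0.952 CPM against 0.148 to 0.727 (1.16 ± 0.50). Of all genes 1.09% were higher. The cytokines of the blood panel used in the study were close to the limit in muscle. Only 7 of 18 had enough counts to test and none was past the unadjusted limit in the pooled comparison. Il1b and Il6 reached at most 0.116 and 0.197 CPM in any of the 10 animals, and Ccl2 was at 0.101 to 0.414 CPM in carrier animals and 0.172 to 0.465 in NT.

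Refitted within the libraries named by running number alone (2 carrier animals and NT 6, with other groups giving the spread), 8 of 20 phagocytic genes were higher and none lower (median 1.26) where 0.955% of all genes were higher, and 3 of 18 resident genes were (median 0.77). Within the libraries named otherwise, 5 of 20 phagocytic genes were higher and 1 lower (median 0.26, 11 of 20 above 0) where 3.92% of all genes were higher, and 3 of 16 resident genes were (median 0.21). Mpeg1 differed by 2.73 and 1.42 in the former and the latter, and Lyz2 by 1.98 and 1.05. The former values rest on NT 6 as the only NT animal. Among the NT animals NT 6 was lowest in Mpeg1 (1.43 CPM). It was also lowest in the phagocytic and resident list medians (-0.22 and -0.36 from the NT mean). With the kind of name as a covariate in the fit of all 24 libraries, 293 of 15832 genes were higher (1.85%) and 236 lower. In that fit 7 of 21 phagocytic genes were higher and 1 lower (median 0.46), and 5 of 17 resident genes were higher (median 0.51). No MHC class I gene was lower there (median -0.46), and the slow fibre median was 0.48.

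Markers of the other cells that muscle can hold were checked because they could move with the macrophage genes. Ly6g, which defines mouse neutrophils, had no count in any of the 10 animals, and none of 8 tested neutrophil and mast cell genes was past the unadjusted limit. Among B cell genes, Ms4a1 had a count only in Brush A (0.0680 CPM), and none of 6 tested was past it. Of 14 endothelial, 12 Schwann cell and 5 red cell genes none was past it. Of 18 fibroblast and matrix genes 1, fibronectin (Fn1), was higher, where 1.09% of all genes were. The list of 14 adipocyte genes had a median of -1.44 with none past the limit, and its summed level was 6184 CPM in NT 4 and 1507 to 2911 in the other NT animals against 1627 to 2299.8 in carrier animals. Without NT 4 its median was 0.01. The summed level of 10 slow fibre genes was 2032 CPM in Brush B and 2030.0 in pacDNA-Scr B, 392 in pacDNA-Scr A and 105 in Brush A, and 117 to 1152 in NT with NT 6 highest. All 10 slow fibre estimates were above 0 with a median of 1.70, and none was past the unadjusted limit. Without NT 6, 6 of 10 were higher with a median of 2.59, where 0.931% of all genes were higher. The 3 libraries named by running number alone were the 3 highest of 10 in slow fibre genes, and within the libraries named otherwise the median was -0.17, with 2 of 10 above 0.

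The genes that separate untreated HSA-LR muscle from WT were then examined in the carrier animals. By edgeR, 328 genes (2.07%) were higher and 104 (0.657%) lower in NT than in WT at an adjusted p under 0.05 and a log2 difference over 1. In the carrier comparison, where no gene was called, 9 of the 328 were higher and 4 lower at an unadjusted p under 0.05, and 4 of the 104 were higher and 2 lower, beside 1.79% of all genes in either direction. In pacDNA-Scr alone 6 of the 104 were higher and 2 lower, with a median of 0.17, where 0.771% of all genes were higher. Both sets were chosen by the NT animals that also serve as control here. NT values that are extreme by chance push the difference towards WT, so a shift in that direction is no independent evidence. The median carrier difference was 0.04 over the 328 genes, whose median NT difference from WT was 1.76, and 0.14 over the 104 genes, whose median NT difference was -1.48. Sln, the sarcolipin that inhibits the calcium pump, was at 91.9 and 83.4 CPM in Brush, 110.2 and 118 in pacDNA-Scr, 51.5 to 109.9 in NT and 0.344 to 5.51 in WT, so that both pacDNA-Scr animals lay just above the NT range and far from WT. Actc1, cardiac actin, was at 24.1 to 80.3 CPM in carrier animals and 19.3 to 79.9 in NT, below the 200.5 or more of every WT animal.

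Finally pacDNA-L9 at 5.3 mg/kg was set against pacDNA-Scr at 5.3 mg/kg, the same conjugate with another sequence, 2 animals each. Both pacDNA-L9 animals were female, and neither library was named by running number alone. pacDNA-Scr held 1 female and 1 male, and pacDNA-Scr B was so named. Sequence therefore cannot be fully told apart from sex and kind of name. By edgeR 0 genes were called (259 at an unadjusted p under 0.05, 1.64%), and DESeq2 called 1, Tmem132b, a neuronal membrane protein. It was at 7.51 and 2.29 CPM in pacDNA-Scr, 6.12 and 7.94 in Brush, 1.88 to 3.48 in NT, and 0.559 and 0.312 in pacDNA-L9. The difference of pacDNA-L9 from pacDNA-Scr was -3.48 ± 0.79 by edgeR (adjusted p = 1.00) and -3.50 ± 0.72 by DESeq2 (adjusted p = 0.0338). Mrln, which encodes the micropeptide myoregulin, differed by -0.95 ± 0.28. Slc6a19, an amino acid transporter, differed by 3.30 ± 0.94, resting on 1 pacDNA-L9 animal at 13.1 CPM beside the other at 0.951, and Clec1a by 1.51 ± 0.43. Mpeg1 and Lyz2 differed between the conjugates by 0.38 ± 0.45 and 0.11 ± 0.38, values within their error, and Csf1r was 0.64 ± 0.28 higher in pacDNA-L9, with an adjusted p of 1.00.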

How the data were processed

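Poly(A) RNA of quadriceps was sequenced as paired 150-base reads, and the deposited values are raw counts per gene that the authors made. The submitters' processing notes name HISAT2 2.0.5, DESeq2 and the build GRCm39, and the methods name Rsubread. Annotation, counting options and strand setting are not given in the sources used here. Each animal is 1 library. Of 56748 gene IDs in the table, 56017 matched GENCODE (GRCm39), the source of symbols, positions and antisense overlaps.

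From these counts, 24 libraries of the first deposited set were fitted with edgeR 4.0.16 in R 4.3.3 (TMM, filterByExpr, robust quasi-likelihood test, Benjamini-Hochberg adjustment, threshold 0.05). Brush and pacDNA-Scr formed 1 coefficient in the pooled fit (17 residual degrees of freedom) and separate ones in the other fit (16). The second deposited set, which holds no carrier library, entered only an alternative. Values are CPM on library sizes adjusted by TMM, differences are log2 with SE, and intervals are 95%. DESeq2 1.42.0, other filters and scalings, sex (from Xist and Y-linked genes), table name and left-out libraries were alternatives. The fit was tested on simulated data.

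Members, lists and tests were chosen with earlier results of these data known. The genes named were those past the threshold, or, where fewer than 10 passed, the 10 higher and 10 lower of smallest p with at least 2 CPM and no overlap between carrier and NT animals, the 2 higher and 2 lower of smallest p in each separate comparison, members of the lists, and the genes of largest difference between NT and WT. Of these, 1 is not reported here. Counting noise is covered by the model, and depth limits genes of low count.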

Additional observations from a re-analysis of the deposited data

Results flagged for a closer look

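Single animals stood apart from the rest of their group in 22 of 166 sets of values examined, the gap to the nearest animal being over Dixon's 95% critical value for its group size. Chance flags about 1 in 20 groups where values are normally distributed and groups independent. Of 83 NT sets 17 were listed, and of 83 carrier sets 5. CPM were used here without a log scale, and many sets hold genes that move together. These counts therefore cannot be read against that rate.

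NT 4 was the highest NT animal in interferon-linked and adipocyte genes: Tap1 was at 12.0 CPM with the next NT animal at 5.91, H2-K1 at 97.8 (next 35.5), Rsad2 at 3.29 (next 1.64), Gbp2 at 32.2 (next 14.6) and Adipoq, the adipocyte hormone, at 110.3 (next 18.1). Its summed interferon-stimulated genes reached 289 CPM (next 165) and its summed adipocyte genes 6184 CPM (next 2911). Without NT 4 the median carrier differences were -0.22 for MHC class I, -0.12 for interferon-stimulated and 0.01 for adipocyte genes.

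NT 5 was highest in macrophage genes: Ms4a7 at 1.00 CPM (next 0.470), C1qc at 15.9 (next 8.43), C1qa at 25.5 (next 14.9), Cbr2 at 13.8 (next 10.2) and Fcgr2b at 2.95 (next 1.51). NT 6 was lowest in Mpeg1 at 1.43 CPM (next 3.00), and highest in Lcn2, a neutrophil and acute-phase protein, at 32.3 (next 1.64), in Atp2a2, the slow fibre calcium pump, at 350 (next 147) and in summed slow fibre genes at 1152 (next 456). NT 1 was highest in Tnf, at 0.166 CPM beside 0.0455.

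Among the carrier animals, pacDNA-Scr B was highest in Nr4a2 at 16.3 CPM (next 1.24) and Irs2 at 103 (next 28.3). pacDNA-Scr A was highest in Tnf at 0.888 CPM (next 0.152), Brush A in Slc11a1 at 3.26 (next 1.89), and Brush B was lowest in Map1a at 52.4 (next 58.3).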

How the results depend on the processing

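The 0 called genes between carrier animals and NT became 1 with all 30 libraries and the deposited set as covariate (Mpeg1, adjusted p = 0.046) and 2 with DESeq2. For Brush against NT the count became 3 without a filter on low counts (Wfdc17, Mpeg1, Stab1), 1 with sex as covariate (Lyz2) and 5 with DESeq2, and pacDNA-L9 against pacDNA-Scr gave 1 with DESeq2. Leaving out 1 library at a time gave 0 to 0 called genes for carrier animals, Brush, Brush against pacDNA-Scr and pacDNA-L9 against pacDNA-Scr, and 0 to 2 for pacDNA-Scr against NT. The 2 were Nr4a2 and Irs2 without pacDNA-Scr A, when pacDNA-Scr B stands alone and is assumed to vary like the other groups. At an unadjusted p, leaving out libraries gave 240 to 562 genes in the carrier comparison. The 562 came without free L9 B, a choice made after seeing the data, as mitochondrial genes took 22.3% of that library, and 502 came without NT 2. The unadjusted count was 955 without the filter, 160 with at least 10 counts in every library, 439 with DESeq2, 529 with table name as covariate, 422 with only the compared libraries, and 1117 within the libraries not named by running number. Scaling by library size alone moved the carrier counts to 196 higher and 92 lower, from 172 and 112. It moved pacDNA-Scr against NT to 142 higher of 204 from 122 of 211. For pacDNA-L9 against pacDNA-Scr it gave 327 of 373 in place of 174 of 259, with the median of all genes at 0.12.

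The shared letters A and B are not stated to pair animals, and same-letter deviations correlated at 0.1 and 0.113. With 2 animals a group the B deviations mirror those of A, so both pairs of a comparison give the same value. In Brush and pacDNA-Scr the letter also goes with the kind of name, B being the libraries named by running number alone. With the letter as a replicate block, Brush against pacDNA-Scr gave 0 genes (320 at an unadjusted p) and pacDNA-L9 against pacDNA-Scr 5 (614), namely Fos, Btg2, Junb, Zfp36 and Csrp3. These fits held only the compared libraries. With a block and 2 animals a side they leave very little to estimate the spread from, so the 5 are uncertain.

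Some directions turned, and the cause was not tested. Leaving out 1 library at a time, Adipoq ran from -2.24 (without pacDNA-Scr B) to 0.0648 (without NT 4), the adipocyte median from -1.81 to 0.00896 (without the same libraries) and Nr4a2 from -0.37 (without pacDNA-Scr B) to 2.85 (without Brush B). Within libraries not named by running number Tnnt1 gave -0.0136 and the slow fibre median -0.17, from 1.70. Within those named by running number Psmb8 gave 0.48, H2-D1 0.0185, H2-K1 0.0304, B2m 0.12, Gbp2 0.38 and Adipoq 0.24, and the medians were 0.0304 for MHC class I, 0.12 for interferon-stimulated, 0.21 for adipocyte and -0.47 for immediate early genes. Of the gene values under alternatives, 1841 kept direction and side of the threshold, 11 gained significance and 9 turned. With 2 animals a carrier group, depth and number both limit genes of low count.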
